A study of Mus musculus with 2 samples.

Results

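Mir140 is the gene of the microRNA miR-140, which lies inside the gene Wwp2 on mouse chromosome 8. It is 1 of the 2202 microRNA genes counted here, and was taken as the row of each count table whose Ensembl identifier, ENSMUSG00000065439.1, carries the symbol Mir140 in the GENCODE M21 annotation. The gene was chosen by its measured level and by its ratio between the libraries, so both are given as descriptions without a test. The study measured microRNAs in the hearts of female adults that were 8 to 10 months old, of a strain labelled 5xFAD/CAST. The 5xFAD transgene makes mice develop amyloid plaques as in Alzheimer disease, and CAST is a wild-derived inbred strain. The labels give no genotype for a single animal, and no treatment. There was 1 group of 2 libraries, numbered as biological replicates 2 and 1, with no control group. Both carry the same donor identifier although their biosamples differ, and whether they come from separate animals is not stated. Technical and biological parts of the spread between the libraries therefore cannot be told apart.

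MicroRNAs are cut from hairpin precursors and silence messenger RNAs that carry a match to their seed, bases 2 to 8 of the mature strand. Mir140 is best known from cartilage, where the transcription factor SOX9 drives it together with Wwp2, and mice that lack it have shortened skeletal elements. Its host gene encodes a ubiquitin ligase of the NEDD4 family. No messenger RNA was measured in this series, so the levels of Wwp2 and of any target were not analysed here.

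The hairpin and the mature strand below are shown because every count of Mir140 is a count of reads placed in this hairpin. They are RefSeq sequences of build GRCm38.p6 (mm10), at chr8:107551244-107551313 on the plus strand, with the mature strand miR-140-3p in capitals in the hairpin. In the mature sequences the capitals mark the seed.
Mir140 hairpin: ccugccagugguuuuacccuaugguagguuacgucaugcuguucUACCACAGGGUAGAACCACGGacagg
miR-140-3p: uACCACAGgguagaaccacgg
miR-497b: cACCACAGugugguuuggacgugg
miR-876-3p: uAGUGGUUuacaaaguaauuca

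The strand miR-140-3p took bases 45 to 65 of the hairpin, at chr8:107551288-107551308. Of the 1738 mature sequences in the RefSeq table, only miR-497b, at chr11:70234763-70234786 on the minus strand, had the same seed, ACCACAG. Its gene Mir497b had 1 count in replicate 2 and 0 in replicate 1, and lies on the strand opposite Mir497. The seed of miR-876-3p, AGUGGUU, occurred at bases 7 to 13 of the Mir140 hairpin, in the arm opposite miR-140-3p. It was looked up by name, and that arm was not searched for the seeds of all microRNAs. Mir876, at chromosome 4 in an intron of Lingo2, had 0 counts in both libraries. A count of 0 allows up to 3 counts, or 1.04 CPM (counts per 1000000 gene counts) in replicate 2 and 0.717 CPM in replicate 1. The table held no entry for miR-140-5p, the strand of the arm that holds AGUGGUU, so the seed of miR-140-5p was not read.

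The hairpin folded with 30 base pairs and a predicted minimum free energy of -39.1 kcal/mol, by RNAfold. In that fold 20 of the 21 bases of miR-140-3p were paired, and 6 of the 7 seed bases. Its sequence was the same in RefSeq and in the GENCODE precursor. The longest run it shared with any other annotated precursor, on either strand, was 11 bases, below the 18 bases used here to mark genes whose reads could fit several loci. Reads at several loci, which no gene received, made up 43.2% of the reads of replicate 2 and 42.4% of those of replicate 1. GC made up 52.9% of the hairpin and 57.1% of miR-140-3p. Counts were per gene, so the arms and the length variants of miR-140 were not separated.

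Mir140 lay 114879 bases after the start of Wwp2, which runs from 107436365 to 107558595 on the plus strand, so at 94.0% of the host's length. In 3 of the 11 annotated Wwp2 transcripts it was intronic. In Wwp2-201, which has 24 exons, it lay in intron 16, which is 2141 bases long, with 1108 bases to exon 16 and 963 bases to exon 17. The transcript Wwp2-206, annotated as a retained intron, covers the hairpin with a single exon of 2653 bases. Under the rule that any exon of the host counts, Mir140 is thus exonic, although no protein-coding transcript has an exon there. The retained-intron transcript Wwp2-210 starts 93 bases after the start of Mir140, just past the hairpin. The other 6 transcripts end before it.

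**Figure D1:**
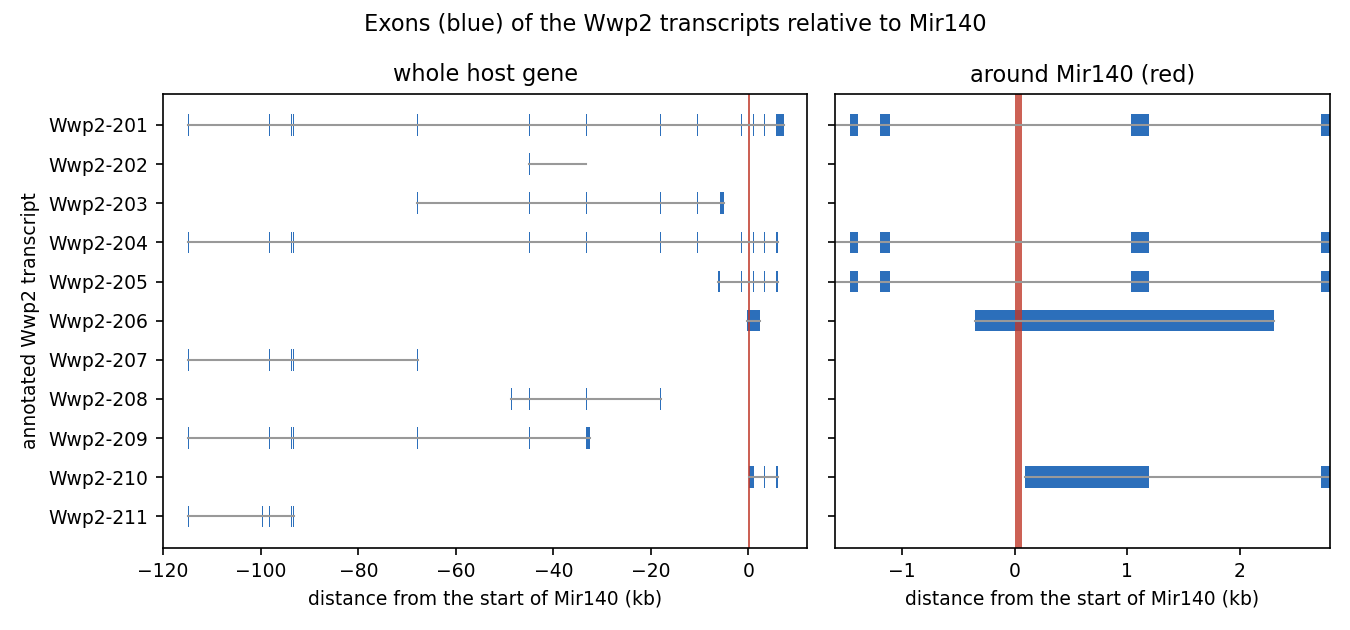
Exons (blue boxes) of the 11 annotated Wwp2 transcripts by distance from the start of Mir140 in kb, for the whole host gene and for the stretch around the hairpin (red band, drawn wider than to scale in the whole-gene view so that it can be seen). The hairpin falls in an intron of Wwp2-201, Wwp2-204 and Wwp2-205 and inside the single exon of Wwp2-206.

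Mir140 was the only microRNA gene inside Wwp2. The nearest annotated microRNA gene before it was Mir7075, 455137 bases away in Terf2 on the other strand, and it had 5 counts in replicate 2 but 0 in replicate 1. The nearest after it was Gm23646, a predicted gene 289643 bases away, with 0 counts in both.

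Mir140 was among the abundant microRNA genes of these hearts, and its level differed more between the libraries than that of any other gene near its level except Mir195a. It had 29980 counts in replicate 2 and 6911 in replicate 1. That was 10419 CPM in replicate 2 and 1651 CPM in replicate 1. As a share of gene counts it was 1.04% in replicate 2, with an exact 95% interval (Clopper-Pearson) of 1.03 to 1.05, against 0.165% in replicate 1, with an interval of 0.161 to 0.169. Replicate 2 was the high library although it was the shallower, with 2877511 gene counts against 4186560 in replicate 1. The intervals hold for counting error alone and leave out the spread between libraries. Reads that carry no molecular identifiers may be copies of a molecule, so the intervals may be too narrow even for counting error.

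All reads of Mir140 lay on the strand of the gene. The opposite strand had 0 counts in both libraries, and counts regardless of strand were the same as those on the gene's strand. Per 1000000 reads of any kind, unassigned reads included, Mir140 had 3357 in replicate 2 and 522 in replicate 1.

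The mean level was 6035 ± 6200 CPM (SD, n = 2), which ranked Mir140 23rd of 2202 genes. The SD was 103% of the mean, so this mean describes neither library well. Without replicate 1 the level was 10419 CPM, and without replicate 2 it was 1651 CPM. Of the 22 genes with a higher mean, 5 lay within 1 SD of Mir140 and 17 lay above it. Every gene with a lower mean was within 1 SD, because the SD exceeded the mean, so the order below it was not resolved.

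The rank of Mir140 was 17 in replicate 2 and 50 in replicate 1. In replicate 2 it stood between Mir30a with 11806 CPM and Mir99b with 9390 CPM, and the counting intervals of the 3 genes did not overlap. In replicate 1 it stood between Mir145a, a gene of smooth muscle, with 1662 CPM and Mir208a, the microRNA of the cardiac myosin gene Myh6, with 1638 CPM. There the interval of Mir140, 1612 to 1690 CPM, overlapped those of both, so the order of these 3 genes was within counting error.

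By mean level the 5 genes just above Mir140 were Mir99b, Mir30e, Mir191, Mir125a and Mir151, and the 5 just below were Mirlet7e, Mir652, Mir27b, Mirlet7f-2 and Mir34a. Their values ranged from 3681 to 9390 CPM in replicate 2 and from 4481 to 9554 CPM in replicate 1. Mir140 was above all 10 in replicate 2 and below all 10 in replicate 1. This largely restates its ratio, because the 10 genes were picked by their mean level. Their SDs ranged from 230 to 1858 CPM, against 6200 CPM for Mir140. The nearest above, Mir151 in an intron of Ptk2, averaged 6102 ± 1721 CPM, and the nearest below, Mirlet7e, averaged 5668 ± 523 CPM (SD, n = 2 each). The means of all 10 differed from that of Mir140 by less than its SD.

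**Figure D2:**
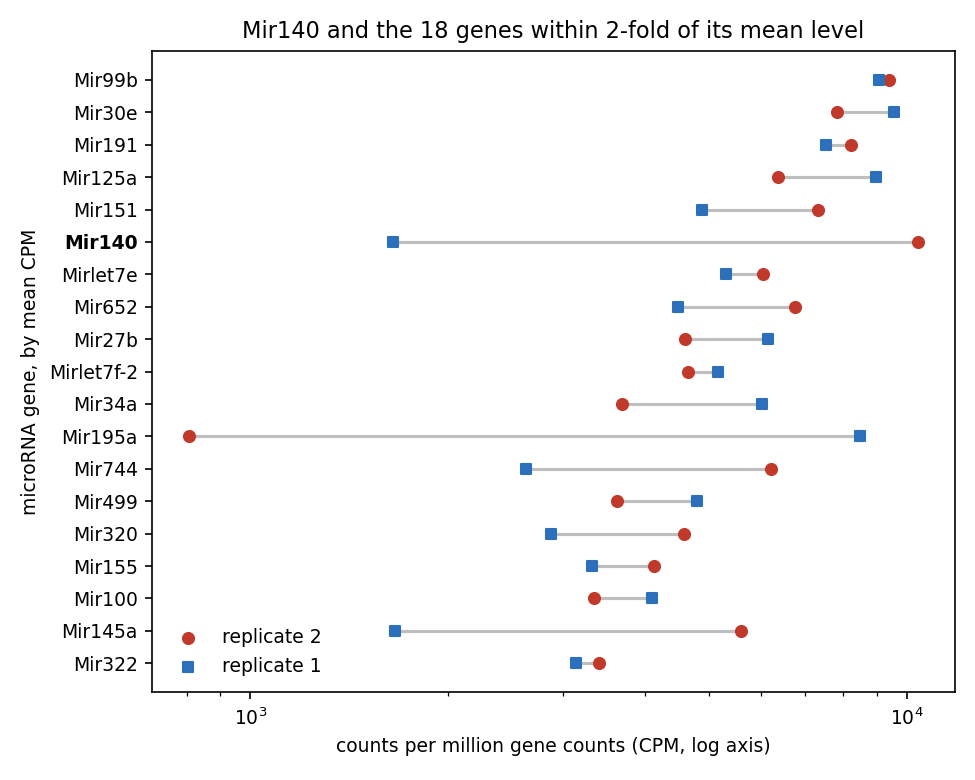
CPM on a log axis in replicate 2 (red circles) and replicate 1 (blue squares) for Mir140 and the 18 tested genes within 2-fold of its mean level, ordered by mean CPM. Each grey line joins the 2 libraries of a gene. The line of Mir140 joins 10419 CPM in replicate 2 and 1651 in replicate 1, and only that of Mir195a is longer.

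The log2 ratio of replicate 2 over replicate 1 for Mir140 was 2.73 (exact 95% interval 2.69 to 2.77), a 6.63-fold difference after TMM scaling, which adjusts for a shift shared by most genes. From CPM alone it was 6.31-fold. A total of 309 genes had enough counts in both libraries for a test. Of these, 17 were at least 2-fold higher in replicate 2, a background of 5.5%, and 40 were at least 2-fold lower, 12.9%. The median gene differed 1.43-fold in either direction, and the median log2 ratio was 0.01. The ratio of Mir140 was the third highest of the 309, after Mir26a-1 with 262 counts in replicate 2 and 20 in replicate 1, and Mir302d with 270 and 24. Genes with few counts in either library were left out by the filter, so this rank does not cover them. Among them were Mir302a, with 482 counts in replicate 2 and 10 in replicate 1, and Mir9-3, with a log2 ratio of 5.00, above that of Mir140. Genes lower in replicate 2, such as Mir200a (-2.01), were left out as well. Among the 62 tested genes with a mean of at least 1000 CPM it had the highest ratio, followed by Mir145a with 1.82.

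Genes of similar level were those with a mean within 2-fold of Mir140, from 3017 to 12069 CPM. The window held 18 other genes, with Mir322 at 3265 CPM just inside and Mir93 at 2806 CPM just outside the lower bound, and Mir99b at 9227 CPM inside and Mir30a at 12689 CPM outside the upper. The ratio of Mir140 was the highest in the window, and the other log2 ratios ran from -3.33 to 1.82 with a median of 0.16 and quartiles of -0.30 and 0.59. The size of the ratio had a median of 0.37 among the others. Of the 18, 3 differed at least 2-fold, with Mir145a (log2 ratio 1.82) and Mir744 (1.31) higher in replicate 2 and Mir195a (-3.33) lower. The remaining 15 stayed within 2-fold, among them Mir320 (0.75), Mir652 (0.66) and Mir151 (0.65) at the high end and Mir34a (-0.64), Mir125a (-0.43), Mir27b (-0.35) and Mir499 (-0.33) at the low end. Summed, the 18 genes had 96538 CPM in replicate 2 and 98132 in replicate 1.

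**Figure D3:**
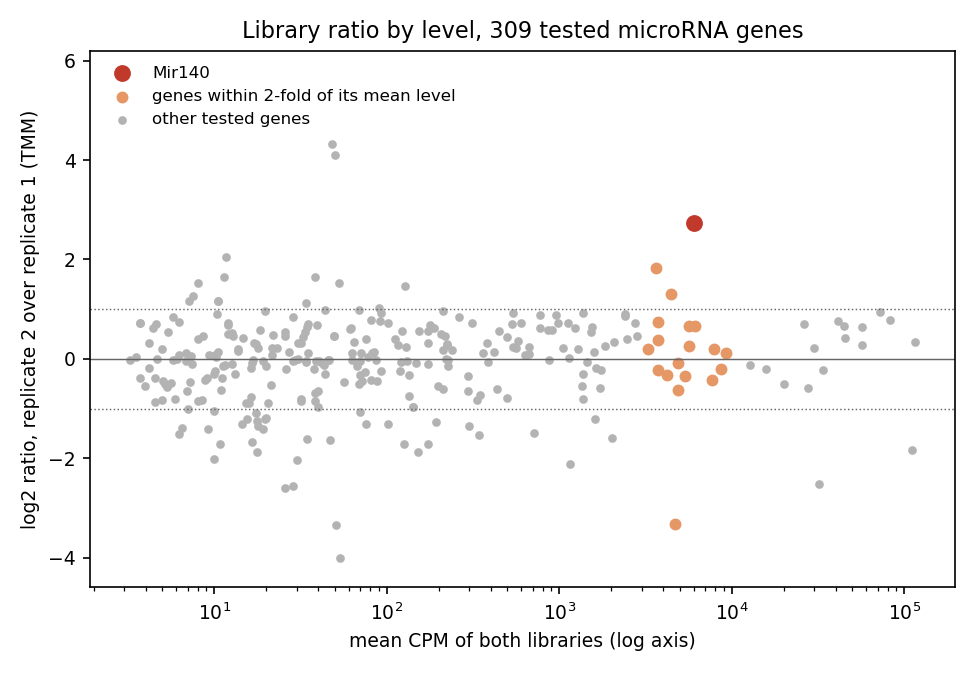
Log2 ratio of replicate 2 over replicate 1 after TMM scaling against mean CPM (log axis) for the 309 tested microRNA genes, with Mir140 in red, the 18 genes within 2-fold of its mean level in orange and the rest in grey. Dotted lines mark 2-fold differences. Mir140 stands at 2.73, above every orange point.

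The GC content of the Mir140 hairpin was the ninth highest among the 19 genes of the window, where it ranged from 42.2% to 67.1% with a median of 51.9%. Across the 309 tested genes the GC content of the precursor and the log2 ratio had a Pearson's r of 0.06 and a Spearman's rho of 0.05, given as a description since all genes share the same 2 libraries. In the window, 16 of 19 genes, Mir140 included, shared no run of 18 bases with another precursor, and 11 lay in a protein-coding host. Among the 225 tested genes with no such shared run, Mir140 had the second highest ratio, and among the 154 with a protein-coding host the second highest as well. The median log2 ratio was 0.08 in the first of these sets and 0.10 in the other.

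The 5 genes whose 2 values were closest to those of Mir140 were Mir145a, Mir744, Mir320, Mir652 and Mir151. Closeness was the distance in log2(CPM + 0.5) over the 2 libraries, 0.90 for Mir145a, 1.00 for Mir744, 1.43 for Mir320, 1.57 for Mir652 and 1.65 for Mir151. Mir145a had 5587 CPM in replicate 2 and 1662 in replicate 1, and Mir744, in an intron of Map2k4, had 6222 and 2633. With 2 libraries, such closeness says only that level and ratio were alike.

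Of the 5 other microRNA genes of the cartilage list, 2 were tested, and both lay within 2-fold between the libraries. Over all 309 tested genes, 18.4% differed at least 2-fold. Mir455, which lies in an intron of the cartilage collagen gene Col27a1, had 1847 CPM in replicate 2 and 1245 in replicate 1, and was higher in replicate 2 (log2 ratio 0.64, exact 95% interval 0.59 to 0.70, adjusted p = 1.88e-113). Mir140 stood 5.64-fold above Mir455 in replicate 2 and 1.33-fold above it in replicate 1. Mir337 had 45.9 CPM in replicate 2 and 66.9 in replicate 1 and was lower (log2 ratio -0.47, adjusted p = 0.00322). These p-values come from exact two-sided binomial tests with Benjamini-Hochberg adjustment over the 309 genes, and compare the 2 libraries, not conditions. By that test 109 of the 309 genes, 35.3%, were higher in replicate 2 and 87, 28.2%, were lower.

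The remaining members of the cartilage list had few counts and were not tested. Mir675, made from the noncoding RNA H19, had 1 count in replicate 2 and 3 in replicate 1. Mir365-1 had 11 counts in replicate 2 and 6 in replicate 1, and Mir365-2 had 14 and 5. The 2 Mir365 genes share a run of 18 bases, so reads common to both were assigned to neither. Apart from Mir140 the 5 genes of the list summed to 1902 CPM in replicate 2 and 1315 in replicate 1.

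Of 13 further microRNAs reported in cartilage biology, 10 were tested. In replicate 2, 5 of these were higher and 4 lower, and 1 gene failed the test. Over all tested genes the shares were 35.3% higher and 28.2% lower. The median log2 ratio of the 10 was 0.10, against 0.01 over all tested genes. The higher genes were Mir145a (log2 ratio 1.82), Mir221 (0.89), Mir320 (0.75), Mir222 (0.73) and Mir98 (0.19). The lower genes were Mir22 (-2.51), Mir148a (-0.46), Mir27b (-0.35) and Mir101a (-0.33). Mir146, a gene of inflammation, had 1111 CPM in replicate 2 and 1159 in replicate 1 (adjusted p = 0.842, exact binomial test). Mir22, a gene of heart and muscle, was below Mir140 in replicate 2, with 9084 CPM, and above it in replicate 1, with 54550 CPM. The counts of Mir9-3 were 63 in replicate 2 and 3 in replicate 1, those of Mir9-1 were 3 and 0, and Mir9-2 had 0 in both.

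**Figure D4:**
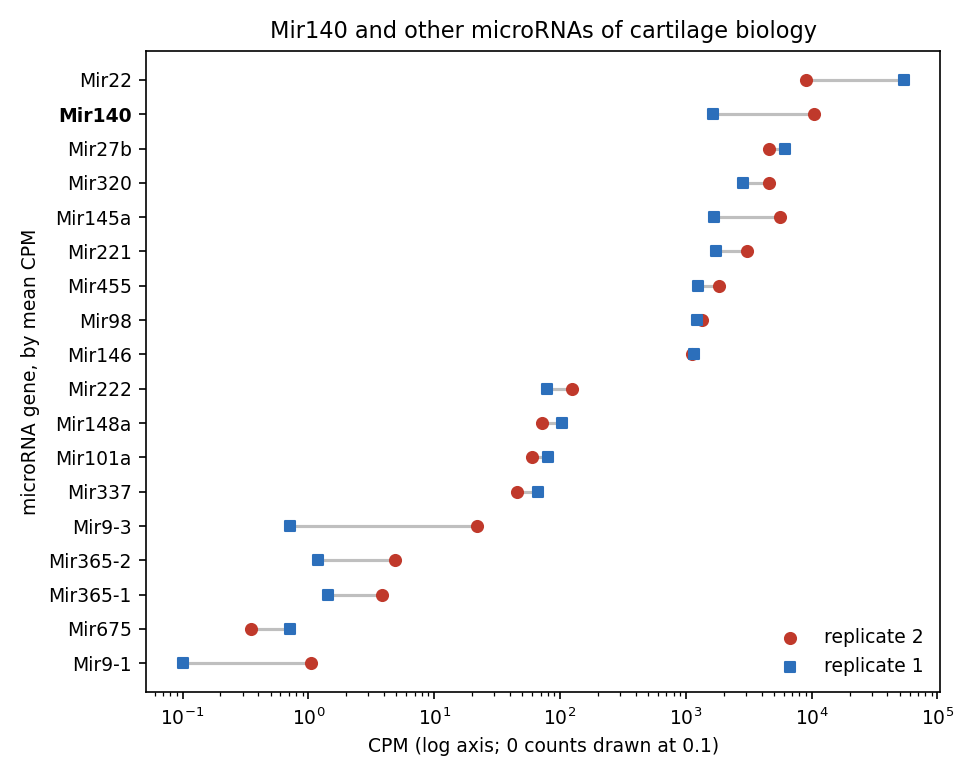
CPM on a log axis in replicate 2 (red circles) and replicate 1 (blue squares) for Mir140, the 5 other genes of the cartilage list and 12 further microRNAs reported in cartilage biology, ordered by mean CPM. A count of 0 is drawn at 0.1. Mir140 has 10419 CPM in replicate 2 and 1651 in replicate 1. Mir455 and Mir337, the other tested genes of the cartilage list, lie within 2-fold between the libraries. Its untested genes had few counts. Of these, Mir365-1 (3.82 and 1.43 CPM) and Mir365-2 (4.87 and 1.19 CPM) are higher in replicate 2, and Mir675 (0.348 and 0.717 CPM) is lower.

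Markers of the heart's cell types also differed between the libraries, and their part in the ratio of Mir140 was not tested. The calls of higher and lower in this paragraph stand against 35.3% and 28.2% of all tested genes. Cardiomyocyte microRNAs were present in both libraries, with Mir499, in an intron of the myosin gene Myh7b, at 3618 CPM in replicate 2 and 4787 in replicate 1, and Mir208a at 1074 and 1638 CPM. The 7 cardiomyocyte genes, of which 4 were tested and 3 were lower, summed to 4789 CPM in replicate 2 and 6544 in replicate 1. That sum leaves out any reads of Mir1a-1, Mir1a-2, Mir133a-1 and Mir133a-2 that fitted several loci, since no gene received such reads. By the 18-base mark, such reads were possible for all of them. The sum may therefore lie below the level of the cardiomyocyte microRNAs. The smooth muscle genes Mir143 and Mir145a, both higher, summed to 56334 CPM in replicate 2 and 32911 in replicate 1. The 4 leukocyte genes, all higher, summed to 7640 and 5369 CPM. The endothelial gene Mir126a was lower, with 46780 CPM in replicate 2 and 174314 in replicate 1, and both erythroid genes were lower, with sums of 230 and 755 CPM. Of the fibroblast genes, Mir21a was higher and Mir214 lower, Mir199a-1 was at 0, and the sum was 3732 CPM in replicate 2 and 5305 in replicate 1. Mir199b, with 16 counts in replicate 2 and 44 in replicate 1, did not pass, and Mir199a-2, with 2 and 20, was not tested. The 18-base mark also holds for Mir199a-1, Mir199a-2 and Mir199b, so the 0 and the sum may miss reads that fitted several loci. The 7 epithelial genes summed to 244 CPM in replicate 2 and 187 in replicate 1, and of the 4 tested Mir203 was higher, with 185 and 70.5 CPM, Mir200b was lower, with 7.99 and 49.2 CPM, and 2 did not pass. The ratio of Mir140 is that of a single gene chosen by it, so these sums cannot be set against it. Among single epithelial markers the log2 ratio was -2.55 for Mir200b and 1.46 for Mir203. In bulk tissue, fewer cells of a type and less RNA per cell cannot be told apart.

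Letters that match a seed were searched in the longest annotated 3′ untranslated region of 9 reported targets of miR-140, on the transcript strand only. The motif CTGTGGT, complementary to the seed of miR-140-3p, occurred in 2 of the 9, Adamts5 and Fgf9, and in 16.1% of the 21020 genes' regions. Per kb it was rarer in the 9 regions (0.081 matches) than in all regions (0.132). Of regions within 1.2-fold of the length of that of Adamts5, 56.5% held it, and for Fgf9 33.5%. The motif AACCACT, complementary to AGUGGUU in the opposite arm, occurred in 5 of the 9 and in 9.70% of all regions, or 0.216 and 0.0743 matches per kb. These were Hdac4, a histone deacetylase of growth-plate cartilage, Adamts5, a protease of the cartilage matrix, Pdgfra, Igfbp5 and Fgf9, and 3 of the sites are given with the motif in capitals.
Hdac4: gtctccgtgtaAACCACTcaac
Adamts5: gtaaacggataAACCACTaatc
Pdgfra: aaccttaagaaAACCACTtcat
The site of Hdac4 starts at base 443 of a region of 4568 bases, and 26.7% of regions within 1.2-fold of that length held the motif. For Adamts5 the site starts at base 2259 of 6437, and the share was 38.5%. For Pdgfra it starts at base 57 of 3115, and the share was 21.1%. The share was 26.1% for Igfbp5 and 21.6% for Fgf9. Dnpep, Smad3, Sp1 and Cxcl12 held neither motif. A match is a run of letters, not a shown site, and a missing match says only that these letters are not in the region searched. The 9 genes were picked as reported targets, and such reports can rest on seed matches. Their matches therefore cannot serve as support for targeting.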

How the data were processed

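The deposited files are tables of raw read counts per microRNA gene, 1 per library, on build mm10 with gene annotation M21 per the deposited readme. The aligner is not given in the sources used here. Columns hold counts regardless of strand, on the gene's strand (used here) and on the opposite strand. The 4 rows that name no gene stayed out of totals and tests. Unmapped reads were 17.5% in replicate 2 and 19.0% in replicate 1, reads at several loci 43.2% and 42.4%, and reads outside genes 7.11% and 6.94%. All 2202 identifiers matched GENCODE M21.

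CPM were computed over gene counts. TMM scaling used edgeR 4.0.16 in R 4.3.3 on 309 genes kept by filterByExpr (minimum count 10), and DESeq2 1.42.0 gave alternative size factors. The design has 1 group, so no model of conditions was fitted. Exact binomial tests were run given TMM-scaled totals (threshold 0.05). Over those genes the libraries differed beyond counting noise (chi-square statistic 1901 per degree of freedom) and were counted as 2 samples, which does not show that they come from separate animals. Alternatives covered scaling, filters, denominators, the strand column, the window, the pseudocount and leaving out a replicate. Python 3.11.15, scipy 1.17.1 and RNAfold 2.7.2 were used. Named genes were Mir140, its 5 neighbours on each side by level, its 5 closest genes, the extremes of its window, genes sharing a seed, chromosome neighbours and list members. Mir876 was added by name. The member and all lists were chosen with earlier results of these data known.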

Additional observations from a re-analysis of the deposited data

How the results depend on the processing

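The log2 ratio of Mir140 kept its direction under all 6 alternatives run. It was 2.66 with plain totals, 2.68 over all reads of the table, 2.68 with counts regardless of strand and 2.61 with TMM scaling over all genes that had a count, each outside the counting interval of 2.69 to 2.77. With DESeq2 size factors it was 2.72, and without the 12 genes that were among the 10 most abundant of either library it was 2.73. The mean level was 21696 CPM over the counts left without those 12 genes, since the totals shrink by construction. It was 7684 CPM with counts regardless of strand and 1940 per 1000000 reads of any kind, and ran from 1651 to 10419 CPM when either replicate was left out. Mir140 had the highest ratio of its window under all 5 alternatives, with 13 to 36 other genes in it. The number of genes higher in replicate 2 ran from 91 to 107 and of those lower from 83 to 108 under the alternatives, against 109 and 87. The 5 closest genes were the same 5 with a pseudocount of 1. No paired analysis was possible because the design holds 1 group. With 2 libraries of 1 group, neither depth nor counts can say which library is typical of this heart tissue.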
